A study of Mus musculus with 6 samples.

Results

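The Myc, Max and Mxd network was followed through the embryonic cortex of mice in which the Hippo pathway kinase genes Lats1 and Lats2 were deleted with Nestin-Cre. Its members were the 10 genes Myc, Mycn, Mycl, Max, Mxd1, Mxd3, Mxd4, Mxi1, Mnt and Mga, chosen by name, out of 22180 genes that a row of the array table names without ambiguity. Among the members only Mxi1 had more than 1 row, and for it, as for other genes, the brightest row is reported unless stated. The mutant embryos carried the genotype Lats1F/F;Lats2F/F;Nestin-Cre (abbreviated DKO, for loss of both kinases), and the embryos they were compared with are labelled control, with no further genotype. Cortices were dissected at E12.5 from untreated embryos, 1 independent embryo per sample, and 3 DKO and 3 control samples were each hybridised to 1 whole-transcript array. Nestin-Cre is known to recombine loxP-flanked alleles in neural progenitors and the cells they give rise to. The dissected tissue also holds cells of other origins, and which cells recombined was not measured here.

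Myc, Mycn and Mycl are basic helix-loop-helix leucine zipper transcription factors that bind DNA only when paired with Max. The Myc-Max pair binds the E-box and activates genes of growth, ribosome production and cell division. Proteins of the Mxd group (Mxd1, Mxi1, Mxd3 and Mxd4) and Mnt also pair with Max, bind the same sites and recruit the Sin3 corepressor, so that the balance of the partners of Max sets the output of shared targets. Mga, a large protein with a T-box as well as a helix-loop-helix domain, pairs with Max within a variant Polycomb complex. In the developing brain Mycn is known as the main Myc gene of dividing neural progenitors, Mxd3 is known from cells in division, and Mxi1 and Mxd4 from cells that leave the cycle. The network is of interest here because Lats kinases restrain the coactivators YAP and TAZ, and the study's title ties these to a general rise of transcription, an effect for which Myc is also known.

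The array values are log2 expression after robust multi-array averaging (RMA), a method with a step that aligns the arrays' distributions. A change common to all transcripts is therefore largely lost from these values, and every difference below is relative to the other transcripts of the same array. Array medians of the deposited values still differed slightly, at 5.94, 5.96 and 5.95 in DKO and 5.97, 5.97 and 5.96 in control cortex. Each DKO median lay slightly below each control median. The median log2 fold change of all genes tested was -0.0282, and it was -0.0158 after repeated quantile normalization and -0.0127 with arrays centred on their median. Correlations between arrays between 0.978 and 0.994. Lats1 stood at 7.82, 7.83 and 7.74 in DKO cortex, against 8.81, 8.34 and 8.98 in control cortex, with a limma adjusted p of 0.0189. With 1 array left out Lats1 was called in only 2 of 6 fits, with adjusted p up to 0.0875 (without DKO 1), and its log2 fold change lay between -1.10 and -0.78. Lats2 was not lower (7.27 ± 0.09 in DKO, 7.03 ± 0.17 in control, SD, n = 3 each, limma adjusted p 0.285). The deleted parts of both genes and the positions of their probes are not known here. The cortical genes Pax6, Emx2 and Lhx2 had means of 9.63, 8.98 and 10.73 in DKO and of 9.70, 9.16 and 10.90 in control cortex. By mean level over the arrays, these markers of the labelled tissue stood at percentiles 94.5, 89.9 and 98.6 of all genes. Of the 12 apical progenitor markers, which include these, 6 had higher and 6 lower means in DKO. Slc1a3, a glutamate transporter of radial glia, rose by 0.40, Hes5, a Notch target, fell by 0.90, and the filament genes Vim (0.32) and Nes (0.24) did not pass. The second rows of Hes5 and Vim differed by -0.29 and 0.59. Markers of the ventral forebrain were also examined. Their means were lower in DKO for 8 of 8 genes, beside 10064 of all 16724 genes tested. Whether dissection or genotype had a part in this was not tested. The ventral genes had a median of -0.15 and no call. Dlx2, a factor of ventral progenitors, had the largest difference among them, -0.66 (limma adjusted p 0.137), and the mean level of the list was 6.83, 6.97 and 6.85 in DKO and 7.13, 7.27 and 6.94 in control cortex. Transcripts of the Y-linked gene Eif2s3y were high (8.32 to 8.46) in DKO 1, DKO 2 and control 2 and low (3.48 to 3.80) in the other arrays, so the sexes were not balanced between the groups. The DKO 2 array had the lowest mean level of all 6 arrays for the meningeal (6.51), endothelial (6.96), erythroid (7.80) and microglial (6.21) marker lists. For hem and choroid plexus markers the mean was higher in DKO in 11 of 11 genes, beside 39.8% of all genes tested. By the limma test 2 of the 11 rose, beside 1.36% of all genes. The mean level of the list per array ran from 6.42 to 6.85 in DKO and from 5.95 to 6.21 in control cortex.

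Across the network, the genes of 4 Max-bound repressors had lower means in DKO cortex, by 0.31 (Mxi1), 0.28 (Mxd3), 0.21 (Mxd4) and 0.20 (Mnt) on the log2 scale, and only the first of them passed the test. Of the 10 members, 1 fell (Mxi1), 0 rose and 9 did not pass the test, a limma fit over 16724 genes in which p after Benjamini-Hochberg adjustment had to be under 0.05. Over all genes tested the same rule called 1.72%, of which the increases were 1.36% and the decreases 0.359% of the genes. At an unadjusted p under 0.05 the members numbered 4 (Mxi1, Mxd3, Mxd4 and Mnt), all of them lower in DKO, where 15.6% of all genes passed. The DKO and control arrays did not overlap for 5 members, 4 of them lower and 1 (Mycn) higher in DKO, and the groups did not overlap for 21.6% of all genes tested. The median log2 fold change (DKO minus control) of the members was -0.06, beside -0.03 over all genes tested. An exact two-sided permutation test cannot give less than p = 0.1 with 3 arrays against 3, and it gave 0.1 for each of the 5 members whose groups were apart.

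**Figure D1:**
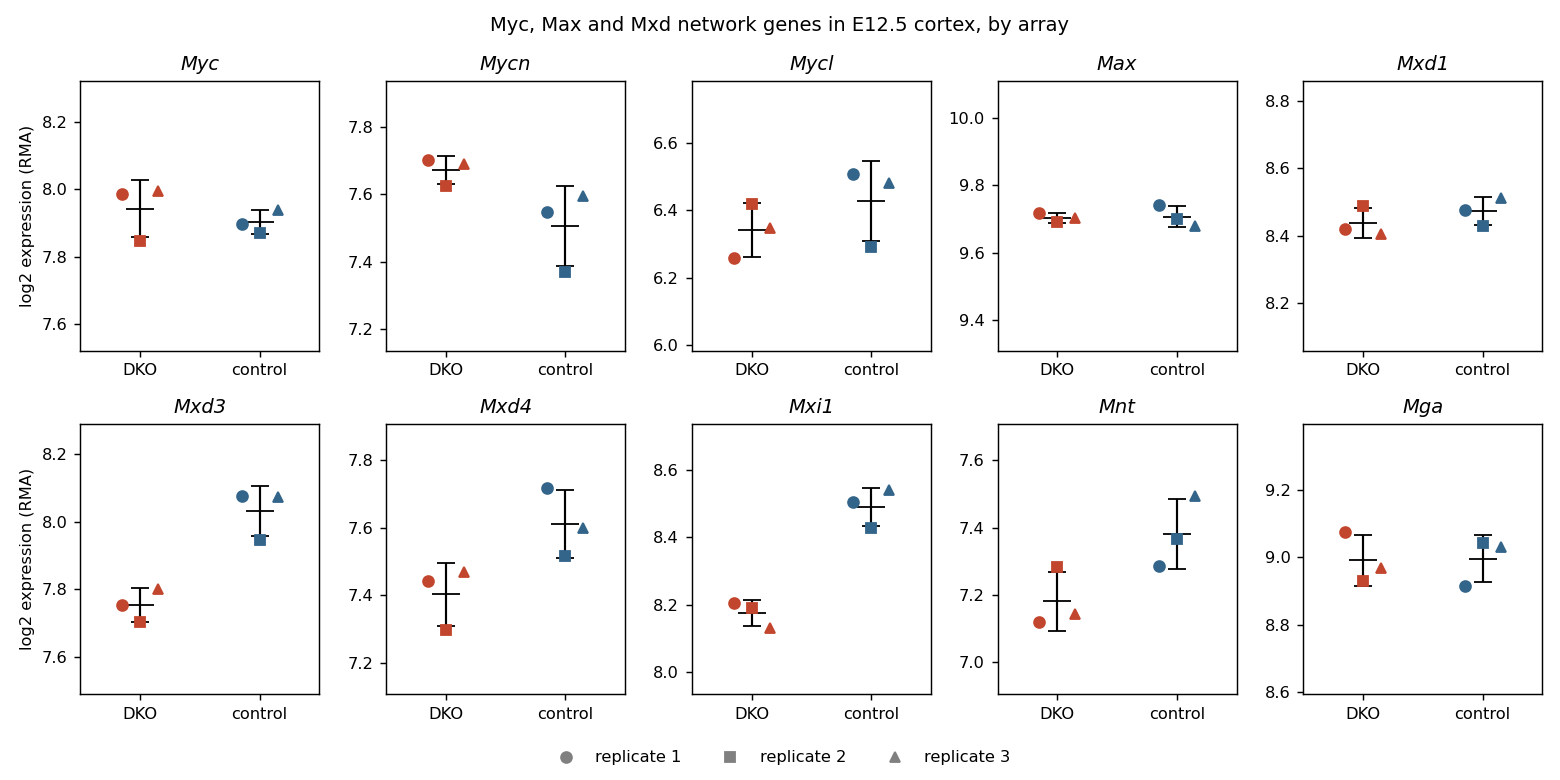
Each panel shows 1 gene, with log2 expression (RMA) on the vertical axis and the DKO arrays left of the control arrays. Points are arrays with the replicate number as their shape, black bars are the mean ± SD, and every panel spans the same height in log2 units. The DKO points of Mxi1 lie between 8.13 and 8.21, all under the control points at 8.43 to 8.54, while those of Max lie between 9.69 and 9.72 and overlap the control points.

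The Mxd genes encode the antagonists of Myc. Mxi1, which is known to repress Myc-activated transcription through Sin3, was at 8.21, 8.19 and 8.13 in DKO cortex, against 8.50, 8.43 and 8.54 in control cortex. Each DKO array was lower than each control array, and the gap between the groups was larger than the spread within either. Mxi1 fell by 0.31 ± 0.06 (SE) on the log2 scale, a 1.24-fold lower signal, with a limma adjusted p of 0.0477. The call was narrow: with 1 array left out the adjusted p lay between 0.0749 (without control 2) and 0.187 (without control 1), although the log2 fold change kept between -0.35 and -0.29 in these 6 fits. With embryo sex as a covariate, a setting chosen after seeing the data, the difference was -0.31 and the limma adjusted p 0.116. A second, dimmer row of Mxi1 stood at 6.13, 6.49 and 6.53 in DKO and at 6.54, 6.69 and 6.42 in control cortex. Those groups overlapped, with a difference of -0.17, and with the mean of both rows in the fit the limma adjusted p was 0.144 and the log2 fold change -0.24.

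Mxd3, the member of the group known from proliferating cells, had values of 7.75, 7.70 and 7.80 in DKO and of 8.08, 7.95 and 8.07 in control cortex. The groups were apart, and the log2 difference was -0.28 ± 0.07 (SE), limma adjusted p = 0.0876. Mxd3 passed the threshold only when dim genes were filtered more strictly (adjusted p 0.0490), so that fewer genes were tested. Mxd4, whose expression is known to accompany differentiation, was measured at 7.44, 7.30 and 7.47 in DKO and at 7.72, 7.52 and 7.60 in control cortex. Its groups did not overlap either, but the lowest control array (7.52) and the highest DKO array (7.47) lay close together. The log2 difference of Mxd4 was -0.21 ± 0.08 (SE), limma adjusted p = 0.246.

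Mxd1, the founding member of the group and known from terminal differentiation, gave no call. It stood at 8.42, 8.49 and 8.40 in DKO and at 8.48, 8.43 and 8.51 in control cortex, with overlapping groups. Its log2 fold change was -0.04 ± 0.06 (SE), and the 95% confidence interval of limma ran from -0.17 to 0.10. Averaged over the 4 Mxd genes, the level per array was 7.96, 7.92 and 7.95 in DKO and 8.19, 8.08 and 8.18 in control cortex.

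Mnt, the most widely expressed Max-bound repressor and a partner of Sin3 like the Mxd proteins, was at 7.12, 7.28 and 7.14 in DKO cortex, against 7.29, 7.37 and 7.49 in control cortex. The highest DKO array and the lowest control array were nearly equal. The log2 difference was -0.20 ± 0.08 (SE), limma adjusted p = 0.267. Mga had overlapping groups, at 9.07, 8.93 and 8.97 in DKO and at 8.92, 9.04 and 9.03 in control cortex. Its log2 fold change of -0.0052 had a 95% interval from -0.16 to 0.15, and its sign turned in 6 of 15 other settings.

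The genes of the Myc proteins gave no call. Myc was at 7.99, 7.85 and 8.00 in DKO and at 7.90, 7.87 and 7.94 in control cortex. DKO 2 was the lowest of all 6 arrays and the other DKO arrays the highest, so the groups overlapped. The log2 difference of Myc was 0.04 ± 0.07 (SE), limma adjusted p = 0.823, with a 95% interval from -0.11 to 0.19. Mycn stood at 7.70, 7.62 and 7.69 in DKO, against 7.55, 7.37 and 7.60 in control cortex. All DKO arrays were above all control arrays, by a margin of hundredths of a log2 unit between DKO 2 and control 3. The log2 difference of Mycn was 0.17 ± 0.07 (SE), limma adjusted p = 0.334, with a 95% interval from -0.0040 to 0.34. Without control 2, the lowest array, the log2 fold change of Mycn was 0.10, and in the other 5 fits with 1 array left out it lay between 0.15 and 0.21.

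Mycl, first known from lung tumours, was at 6.26, 6.42 and 6.35 in DKO and at 6.51, 6.29 and 6.48 in control cortex. The groups overlapped, and the log2 difference was -0.08 ± 0.08 (SE), limma adjusted p = 0.665. Max, the shared partner of the whole network, had the smallest SD of all members in both groups. It stood at 9.72, 9.69 and 9.70 in DKO and at 9.74, 9.70 and 9.68 in control cortex, with a log2 fold change of -0.0028 ± 0.06 (SE) and a 95% interval from -0.13 to 0.13. Its sign turned in 4 of 15 other settings.

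**Figure D2:**
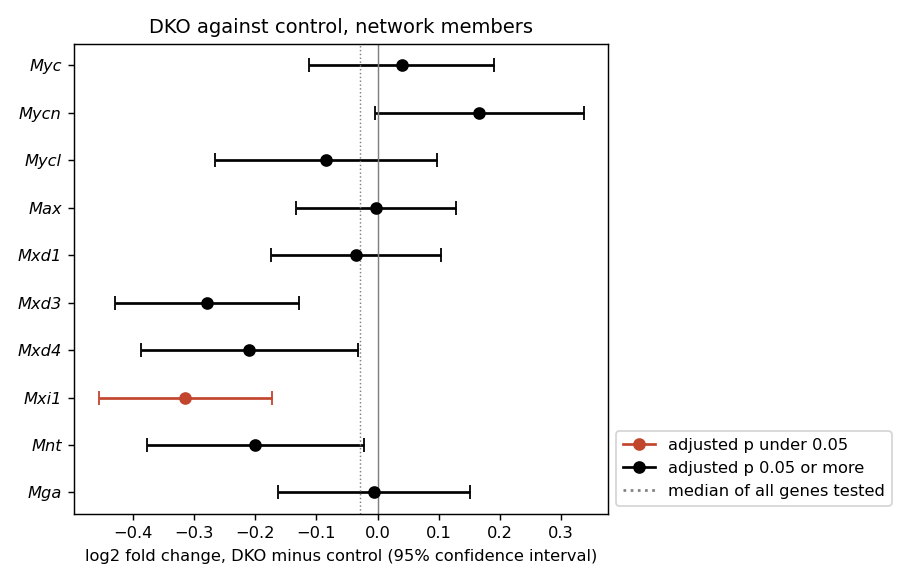
The horizontal axis gives the log2 fold change of each member, DKO minus control, with its 95% confidence interval from the limma fit, and the dotted line marks the median of all genes tested (-0.03). The intervals of Mxi1, Mxd3, Mxd4 and Mnt lie below 0 before adjustment for the number of genes, only Mxi1 passed the adjusted test, and the interval of Mycn reaches just below 0.

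Single arrays were low for several members at once. Control 2 gave the lowest control value for 7 of the 10 members, among them all Myc and all Mxd genes, and DKO 2 the lowest DKO value for 6. How often these arrays were the lowest of their group over all genes was not counted. The genes tested whose pattern over the 6 arrays was most like that of Mxi1 were Ntrk3, Tada1 and Skiv2l, with Pearson correlations of 0.998, 0.995 and 0.994. These correlations share the difference between the groups and describe 6 arrays only. Ntrk3, which encodes the neurotrophin receptor TrkC, fell to 8.47 in DKO cortex, against 8.90 in control cortex, a log2 difference of -0.44 ± 0.07 (SE), limma adjusted p = 0.0229. Tada1 and Skiv2l had log2 fold changes of -0.09 each and did not pass.

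Several marker lists were lower in the same arrays as the Mxd genes, those of neurogenesis among them. All 12 intermediate progenitor and neurogenic markers had lower means in DKO, beside 10064 of all 16724 genes tested. For none of the 12 markers did the groups overlap, all with DKO below, as for 13.4% of all genes. By the limma test 4 fell, beside 0.359% of all genes, and the median log2 fold change was -0.42. Their mean level per array ran from 7.99 to 8.16 in DKO and from 8.40 to 8.61 in control cortex. The 4 that fell were Mfng, a Notch-modifying glycosyltransferase, Gadd45g, Hes6, a neurogenic antagonist of Hes1, and Btg2, an antiproliferative gene, with log2 fold changes of -0.45, -0.53, -0.33 and -0.41. Each fit that left out 1 array called only 1 or 2 of the 12. Of 12 neuron markers 0 rose and 0 fell by the limma test. An unadjusted p under 0.05 was found for 7 of the 12, beside 15.6% of all genes. The mean level of the neuron list ran from 9.30 to 9.46 in DKO and from 9.51 to 9.68 in control cortex. Endothelial markers had lower means in DKO for 10 of 10 genes, and 0 were called. An unadjusted p under 0.05 was found for 4 of the 10, beside 15.6% of all genes. The mean level of the endothelial list was 7.41, 6.96 and 7.43 in DKO, against 7.63, 7.48 and 7.47 in control cortex. The ventral markers described above were lower in mean too, with overlapping list levels, and the hem and choroid plexus markers were higher in each DKO array. The part of any of these marker lists in the lower Mxd levels was not tested. In bulk tissue, fewer cells of a type and less RNA per cell cannot be told apart.

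**Figure D3:**
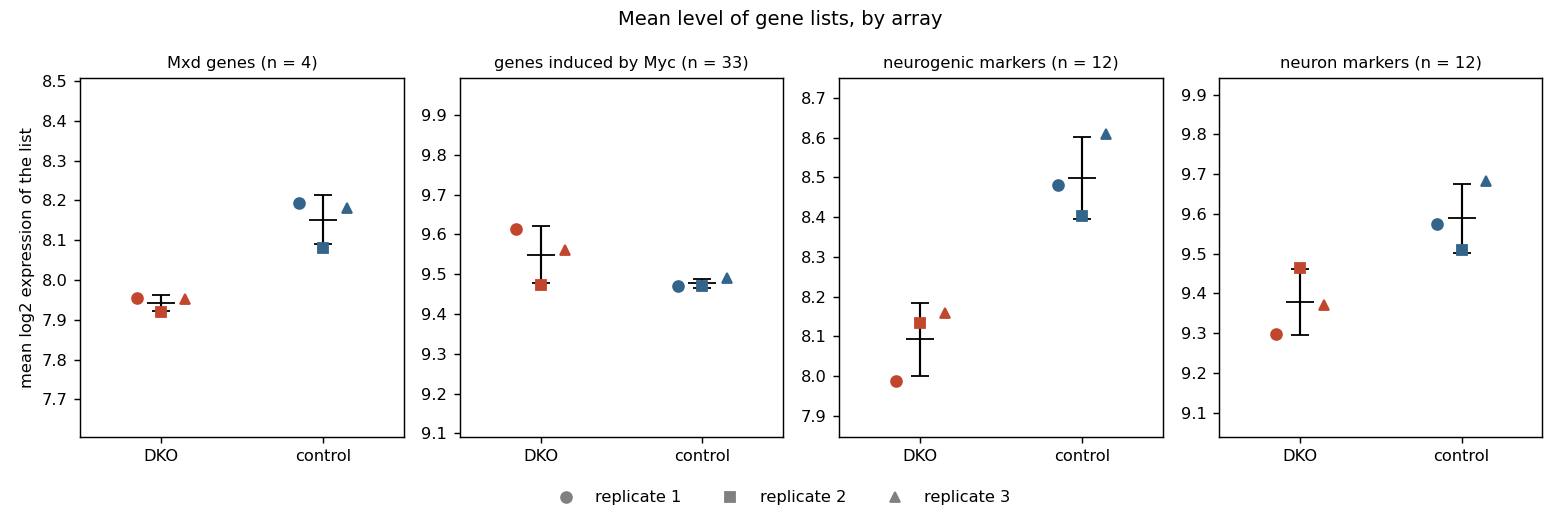
Each panel gives the mean log2 expression of a gene list per array, DKO left of control, with replicate numbers as shapes and black bars for the mean ± SD of 3 arrays. The Mxd genes, the neurogenic markers and the neuron markers are lower in each DKO array than in each control array, while for the genes induced by Myc the DKO 2 array (9.47) lies within the control arrays (9.47 to 9.49).

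The promoter sequences of the members were examined for the E-box, the site the network shares. RefSeq windows of 300 bases around annotated start sites (GRCm38.p6) matched 9 of the 10 members by symbol, with 3 windows for Mxi1 and 1 for each other gene. The E-box CACGTG, which reads the same on both strands, stood in the windows of Max, Mxd4 and Mnt, or 3 of 9 members (33.3%), and in those of 8.09% of all 27025 genes with a window. These sequences are printed because they show where the network's own site lies in genes of the network, and the first of the 3 windows of Mxi1, the member that fell, is given beside them. Capitals mark the E-box.
Max, chr12:76962199-76962498, minus strand: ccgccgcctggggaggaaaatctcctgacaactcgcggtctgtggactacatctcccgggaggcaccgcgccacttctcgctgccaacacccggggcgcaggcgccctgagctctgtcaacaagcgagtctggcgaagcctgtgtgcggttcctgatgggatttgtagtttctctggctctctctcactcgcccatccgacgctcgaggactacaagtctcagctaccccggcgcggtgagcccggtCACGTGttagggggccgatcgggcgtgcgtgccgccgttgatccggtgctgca
Mxd4, chr5:34187661-34187960, minus strand: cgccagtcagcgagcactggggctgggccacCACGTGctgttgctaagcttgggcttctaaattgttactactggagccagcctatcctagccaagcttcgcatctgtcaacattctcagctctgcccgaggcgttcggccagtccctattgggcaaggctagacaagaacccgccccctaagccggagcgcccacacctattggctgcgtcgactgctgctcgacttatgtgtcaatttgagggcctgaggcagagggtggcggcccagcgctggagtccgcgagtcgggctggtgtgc
Mnt, chr11:74830674-74830973, plus strand: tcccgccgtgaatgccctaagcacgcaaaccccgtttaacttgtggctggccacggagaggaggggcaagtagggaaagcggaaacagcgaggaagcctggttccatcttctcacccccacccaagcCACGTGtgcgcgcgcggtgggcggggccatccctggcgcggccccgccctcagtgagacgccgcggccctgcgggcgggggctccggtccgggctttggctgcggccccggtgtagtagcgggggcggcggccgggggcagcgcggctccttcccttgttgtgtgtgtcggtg
Mxi1, chr19:53310256-53310555, plus strand: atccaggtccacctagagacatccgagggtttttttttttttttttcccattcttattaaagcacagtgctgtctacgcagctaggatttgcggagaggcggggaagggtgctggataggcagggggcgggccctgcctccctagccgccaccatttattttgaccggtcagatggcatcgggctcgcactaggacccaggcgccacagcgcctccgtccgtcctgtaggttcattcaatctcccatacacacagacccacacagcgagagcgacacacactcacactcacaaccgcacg
The E-box begins at base 248 of the window of Max, base 32 of that of Mxd4 and base 128 of that of Mnt. The windows of Mxi1, Mxd3, Mxd1, Mycn, Mycl and Mga do not hold these letters. The core of the TEAD site, GGAATG on either strand, was in 0 of 9 members and in 16.6% of all genes. A match of letters is not evidence of binding, and regions outside these windows were not searched.

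The genes that work with the network were examined next, in 7 lists of 106 different genes, of which 97 had an unambiguous row and were tested. Over these lists 3 genes rose, 2 fell and 92 did not pass. The median log2 fold change was -0.0072, beside -0.03 over all genes. Each list is described by its counts, against 1.72% of genes called and 15.6% at an unadjusted p under 0.05 over the whole table.

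The Mondo and Mlx branch runs parallel to Myc and Max and answers to glucose. Mlx is the partner, Mlxip (MondoA) and Mlxipl (ChREBP) are the activators, and Txnip and Arrdc4 are alpha-arrestins known as their targets. Of these 5 genes 1 fell, 0 rose and 4 did not pass, and the median was -0.19. All 5 had lower means in DKO, beside 10064 of all 16724 genes tested. Txnip was at 7.80, 7.73 and 7.89 in DKO, against 8.39, 8.46 and 8.48 in control cortex, a log2 difference of -0.64 ± 0.07 (SE), limma adjusted p = 0.00236. Txnip remained called in all 15 other settings, and its groups stood far apart. Arrdc4 had a log2 difference of -0.22 ± 0.07 (SE) and Mlxip of -0.19 ± 0.06 (SE), with limma adjusted p values of 0.188 and 0.221 and groups that did not overlap. Mlxipl had a log2 fold change of -0.13, and Mlx, the shared partner, of -0.05, both with overlapping groups. Mlxipl was dim, at 5.18 in DKO and 5.32 in control cortex, close to the filter limit of 5.02.

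The Sin3 corepressor carries the repression by Mxd and Mnt proteins. Of its 12 measured genes 1 rose, 0 fell and 11 did not pass, with a median of -0.04. Sap30, which encodes a subunit that links Sin3 to its deacetylases, was at 9.74, 9.80 and 9.79 in DKO, against 9.40, 9.33 and 9.39 in control cortex. It rose by 0.40 ± 0.06 (SE) on the log2 scale, with a limma adjusted p of 0.0128, and the 3 DKO arrays stood together above the controls. The call was kept in 10 of 15 other settings and lost in 4 of 6 leave-one-out fits, where the adjusted p reached 0.0607 (without DKO 3). Sin3a, the scaffold itself, had a log2 difference of -0.14 ± 0.06 (SE), limma adjusted p = 0.298. Ing2 and Brms1, further subunits, had values of -0.12 and -0.13 and did not pass.

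Cofactors of Myc and of Mga gave no call. Of 13 measured Myc cofactors 0 rose and 0 fell by the limma test, 0 had an unadjusted p under 0.05, and the median was -0.08. The smallest p values belonged to Ep400, a remodelling ATPase of the complex that Myc recruits, at -0.15 ± 0.07 (SE), Wdr5, an anchor of Myc on chromatin, at -0.15 ± 0.07 (SE), and the ATPase subunit Ruvbl2 at 0.13 ± 0.06 (SE). A second, dimmer row of Ep400 differed in the other direction, by 0.16. Hcfc1, a host cell factor that binds Myc, had a log2 fold change of -0.11. Of 12 members of the Mga-containing Polycomb complex 0 were called and 0 had an unadjusted p under 0.05, with values from -0.15 to 0.16. Their 4 smallest p values were those of Wdr5, Ring1, an ubiquitin ligase, at 0.16, Cbx1 at -0.07 and Yaf2 at 0.09.

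Regulators of Myc protein turnover did not pass either. Of 14 measured genes 0 rose and 0 fell by the limma test, 1 had an unadjusted p under 0.05, and the median was -0.05. That gene was Gsk3b, the kinase that marks Myc for degradation, with 10.72, 10.71 and 10.77 in DKO, against 10.92, 10.87 and 10.94 in control cortex. Its groups did not overlap, and its log2 difference was -0.18 ± 0.06 (SE), limma adjusted p = 0.196. The deubiquitinase Usp22 had a log2 fold change of -0.12, the phosphatase subunit Ppp2r5a of 0.14 and the ubiquitin ligase Huwe1 of -0.09. Levels of Myc protein were not measured.

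Genes known to be induced by Myc had mostly higher means in DKO, by small amounts. The list was chosen with earlier results of these data known and was not tested as a set. Of 33 measured genes 0 rose and 0 fell by the limma test, and 9 had an unadjusted p under 0.05. Means were higher in DKO for 25 of them (75.8%), beside 39.8% of all genes tested, and the median log2 fold change was 0.07. The DKO arrays lay above the control arrays for 11 of the 33 and below for 2, beside 8.22% and 13.4% of all genes. Their mean level per array was 9.61, 9.47 and 9.56 in DKO and 9.47, 9.47 and 9.49 in control cortex, and DKO 1 stood highest. Without DKO 1, 21 of 33 had higher means and the median was 0.04, and without DKO 2 these were 27 and 0.11.

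Odc1, the rate-limiting enzyme of polyamine synthesis and a classic Myc target, had values of 10.10, 9.97 and 10.15 in DKO, against 9.75, 9.85 and 9.76 in control cortex. The groups did not overlap, and the log2 difference was 0.29 ± 0.07 (SE), limma adjusted p = 0.0966. With a trended variance the adjusted p of Odc1 was 0.0294, the only setting of 15 in which it passed. Ncl, which encodes nucleolin, and Ddx21, a nucleolar RNA helicase, had log2 fold changes of 0.23 ± 0.07 (SE) and 0.19 ± 0.06 (SE), with limma adjusted p values of 0.176 and 0.186. A second, dimmer row of Ddx21 went the other way, with a difference of -0.18. E2f2, a cell cycle transcription factor, went the other way, with 6.76, 6.54 and 6.78 in DKO and 6.89, 6.91 and 7.13 in control cortex, a log2 difference of -0.28 ± 0.09 (SE), limma adjusted p = 0.204. Of the 30 listed genes of this group with a promoter window 8 held CACGTG (26.7%), beside 8.09% of all genes.

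Genes known to be repressed by Myc did not move one way. Of 9 measured genes 2 rose, 1 fell and 6 did not pass, with a median of -0.16 and a range from -0.93 to 3.24. The genes that rose were Thbs1, which encodes the matrix glycoprotein thrombospondin 1, and Ccn2, which encodes a matricellular protein, both also known as targets of YAP and TAZ. Thbs1 was at 10.86, 10.62 and 10.73 in DKO, against 7.66, 7.43 and 7.42 in control cortex, a log2 difference of 3.24 ± 0.09 (SE), limma adjusted p = 2.82e-06. Ccn2 was at 8.82, 8.54 and 8.99 in DKO, against 7.08, 7.17 and 6.95 in control cortex, a log2 difference of 1.71 ± 0.11 (SE), limma adjusted p = 0.000276. In these rows the groups of both genes lay more than 1 log2 unit apart. Ccn2 has a second, dimmer row at 5.76, 5.75 and 5.50 in DKO and at 5.71, 5.62 and 5.38 in control cortex, where the groups overlapped, and with the mean of both rows its log2 fold change was 0.90 and the limma adjusted p 0.000953. Ndrg2, a differentiation gene of the N-myc downstream regulated family, fell to 8.94, 9.26 and 9.08 in DKO, against 10.02, 9.77 and 10.27 in control cortex, a log2 difference of -0.93 ± 0.13 (SE), limma adjusted p = 0.0101. The call of Ndrg2 was lost without DKO 1 (adjusted p 0.0561) and without DKO 3 (0.0525). Cdkn2c, which encodes a cell cycle inhibitor of the INK4 group, had a log2 difference of -0.33 ± 0.07 (SE), limma adjusted p = 0.0693, with groups that did not overlap. The listed cell cycle inhibitors did not share a direction. Cdkn1a had a log2 difference of 0.55 ± 0.16 (SE), limma adjusted p = 0.139, with each DKO array above each control array. Cdkn1b and Cdkn2b had log2 fold changes of -0.17 and -0.16, with overlapping groups.

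**Figure D4:**
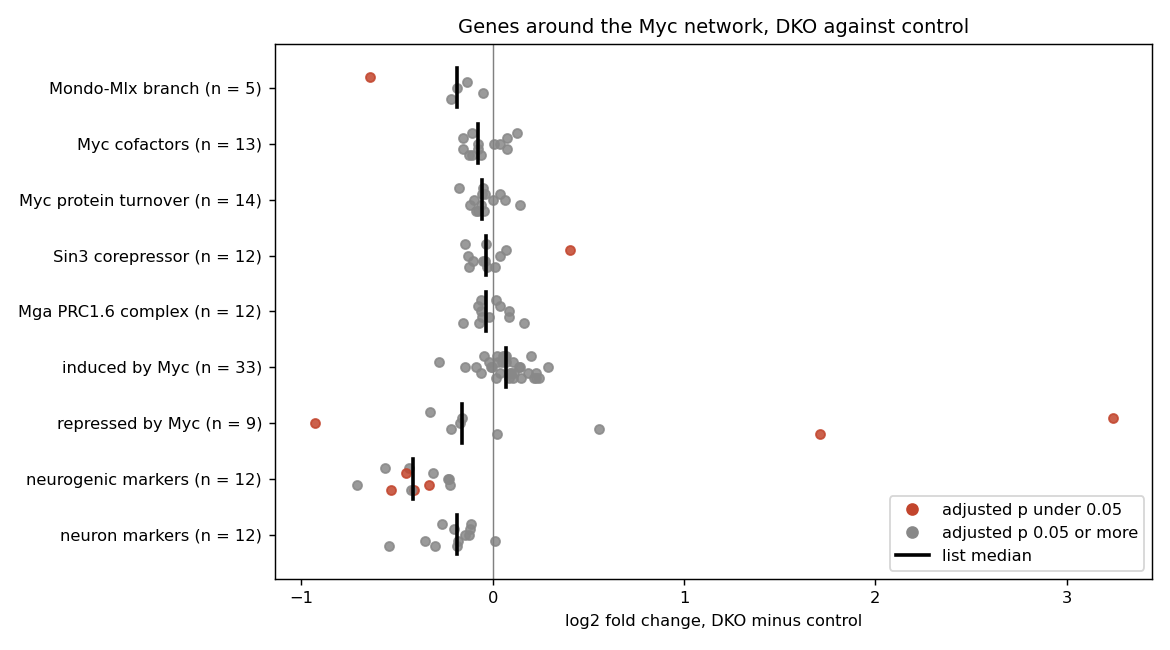
Each point is a measured gene of a list, placed by its log2 fold change, DKO minus control, on the horizontal axis, with black bars for list medians and red points for genes with a limma adjusted p under 0.05. Genes induced by Myc lie in a narrow range from -0.28 to 0.29 with a median of 0.07 and no red point, while neurogenic markers lie wholly below 0 with a median of -0.42.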

How the data were processed

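The deposited values are log2 expression of 41345 rows on 6 Affymetrix whole-transcript arrays, made by the authors with RMA per the submitters' processing notes. Software versions and the build of the probes are not given in the sources used here. Per the labels' protocols, RNA was taken with Trizol and cDNA was made from 100 ng of total RNA. The platform's annotation named 23521 rows with 1 gene symbol (22180 genes), and other rows were not used. All 10 members matched the RefSeq gene table (GRCm38.p6) by gene ID.

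Genes with a mean under the 25th percentile of these rows (log2 5.02) were left out, which left 16724 genes and all 10 members. DKO was compared with control by a two-sided limma fit (version 3.58.1, R 4.3.3; lmFit, then eBayes) with no covariate, and Benjamini-Hochberg adjustment ran over all genes tested. The scripts were tested on simulated data. The precision is limited by 3 arrays per group. Members and gene lists were chosen with earlier results of these data known, and no list was tested as a set. Named genes are the members, Lats1, Lats2, up to 4 genes with the smallest p of a described list and the 3 genes most like a called member. Pax6, Emx2, Lhx2, Mlx, Eif2s3y, Cdkn1a, Cdkn1b, Cdkn2b and the genes of the closing section were named outside that rule. Cdkn1a, Cdkn1b, Cdkn2b and the genes of the closing section were named after their values were seen. The labels tie same-numbered samples by the number only, and whether they share a litter or batch is not known. Alternatives were other filters, scalings, row rules, variance models, array weights, a replicate block, each array left out and, chosen after seeing the data, embryo sex as a covariate.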

Additional observations from a re-analysis of the deposited data

How the results depend on the processing

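The count of members lower in DKO, 1 (Mxi1) as reported, was 2 with the stricter filter (Mxi1 and Mxd3) and 0 with no filter, with the mean of a gene's rows, with the replicate block, with embryo sex as a covariate and in all 6 fits that left out 1 array. No member was called higher in any of the 15 other settings. Log2 fold changes of the members other than Max and Mga kept their sign in all 15. Max turned to 0.0002 with repeated quantile normalization and to 0.0126 with centred arrays, and lay between -0.0170 and 0.0141 with 1 array left out. Mga turned to 0.0103 with centred arrays and 0.0232 with array weights, and lay between -0.0469 and 0.0251 with 1 array left out. Over all genes, 288 were called as reported, 228 higher and 60 lower, and 421 with the stricter filter, 485 with a trended variance, 421 with array weights and 200 with the replicate block. The lower calls numbered 134 with the stricter filter, 162 with a trended variance, 123 with array weights, 24 with the replicate block and 26 with embryo sex. With 1 array left out, 134 to 314 genes were called, 121 to 260 of them higher and 11 to 54 lower, and the pathway lists held 1 to 2 lower calls. Lats1 lay between -1.10 and -0.78 in these fits and was called in 2 of the 6. With the replicate block the adjusted p of Mxi1 was 0.124 and that of Sap30 0.0575. The deviations of same-numbered samples correlated at -0.27, 0.50 and 0.40. These values differ in sign and do not decide whether the numbers pair the samples. The cause of the changes between settings was not tested. Some settings also leave fewer arrays or genes. No detection call was at hand, so signal over background is unknown.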

Other observations

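Other transcription factors that bind the E-box or a like site, in a list chosen after values of these data were seen, gave no call. The list held the Usf, Tfe and Mitf factors, the clock proteins, the hypoxia-inducible factors with their Arnt partners and the Srebf factors. Of its 17 genes 15 were tested and 2, Tfec and Bhlhe41, were too dim. By the limma test 0 rose and 0 fell. Means were higher in DKO for 5 genes (33.3%) and lower for 10, beside 39.8% higher over all genes tested. The median log2 fold change was -0.02, beside -0.03 over all genes. Usf1, a ubiquitous E-box factor, averaged 7.68 ± 0.08 in DKO and 7.87 ± 0.0046 in control cortex (SD, n = 3 each), a log2 difference of -0.19 ± 0.06 (SE), limma adjusted p = 0.221. Epas1, which encodes the hypoxia-inducible factor of endothelium, had a log2 difference of -0.33 ± 0.13 (SE), limma adjusted p = 0.269, and endothelial markers had lower means in the same DKO arrays (median -0.23, 10 of 10 genes); their part in the value of Epas1 was not tested. At an unadjusted p under 0.05 2 of the 15 passed, Usf1 and Epas1, where 15.6% of all genes passed.

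Pvt1, the long non-coding RNA gene next to Myc, was also looked up after the fact. It stood at 6.14, 6.22 and 6.17 in DKO, against 5.99, 5.96 and 5.98 in control cortex. The groups were apart and narrow, and the log2 difference was 0.20 ± 0.06 (SE), limma adjusted p = 0.149, while Myc itself had a log2 fold change of 0.04.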
